A study of Mus musculus with 8 samples.

Results

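The Janus kinases and the signal transducers and activators of transcription (STATs) carry cytokine signals from the cell membrane to the nucleus. A cytokine draws its receptor chains together, the kinases bound to those chains phosphorylate each other and the receptor, and STAT proteins dock, become phosphorylated, pair and enter the nucleus to activate genes. In airway epithelium STAT6 is known for the response to IL-4 and IL-13, STAT3 for that to IL-6 family cytokines and IL-22, and STAT2 for that to type I and type III interferons. The 8 genes described here are Stat3, Stat5a, Stat5b, Stat6, Stat2, Jak1, Jak2 and Tyk2. They were taken by symbol from a table of 25124 genes, in which all 8 were present. Other STAT and Janus kinase genes were not analysed here.

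The libraries were made from cells sorted from the lungs of C57BL/6 mice as airway epithelium. They fall into 4 groups with 2 libraries each. One group is labelled STAT3-cKO (here cKO, a conditional knockout) and received house dust mite (HDM), an allergen used to provoke type 2 airway inflammation. The next is labelled STAT3-WT (here WT) and received HDM. The other two are cKO and WT mice given phosphate-buffered saline (PBS), the vehicle. The sources used here do not give the driver of the knockout, the deleted exons, the age and sex of the animals or the HDM schedule. Nor do the labels state whether replicates stem from different mice, and each p-value therefore weighs a difference only against the spread of these libraries, part of which may be technical.

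Depth was low, at 232556 to 593200 reads counted on genes per library. Reads not counted on a gene are not in these numbers. Values are normalized read counts, and 1 read is worth 0.652 to 1.63 of them depending on the library. Stat6 was covered by 41 to 180 reads per library and Stat3 by 35 to 205, but Tyk2 by 1 to 23 and Stat5a by 0 to 11. Of the 8 genes, 6 reached the mean of 10 normalized counts required for testing. Stat5a and Tyk2 did not, and their values are given without a place in the counts of tested genes. Libraries of 1 group correlated across genes at r = 0.56 to 0.77, and libraries of different groups at 0.437 to 0.766, so replicates were not closer to each other than to other groups in every case. The epithelial marker Epcam was present in every library, at 99.7 to 179 normalized counts, and the leukocyte marker Ptprc was at 0 in both cKO HDM libraries, at 12.4 and 37.4 in WT HDM, at 0 in both cKO PBS libraries, and at 0 and 3.64 in WT PBS. Markers of alveolar type 2 cells were abundant in every group, with the 7 listed genes summing to 3952 and 4396 normalized counts in cKO HDM, 8306 and 12570 in WT HDM, 4389 and 4992 in cKO PBS, and 3750 and 5290 in WT PBS. Cells labelled as airway epithelium thus carried the RNAs listed as alveolar type 2 markers too.

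Several of the genes sit beside each other. Stat5b (chr11:100780731-100859004, minus strand), Stat5a (chr11:100859351-100885169, plus strand) and Stat3 (chr11:100886806-100939594, minus strand) lie in a row on mouse chromosome 11 (RefSeq, GRCm38, the assembly also called mm10). Between Stat5b and Stat5a there are 346 bases, and between Stat5a and Stat3 1636. Stat6 (chr10:127642955-127660987) and Stat2 (chr10:128270498-128292853) are both on the plus strand of chromosome 10, 609510 bases apart. Jak1 is at chr4:101151974-101265282 and Tyk2 at chr9:21104068-21131393, both on the minus strand, and Jak2 at chr19:29251803-29313095 on the plus strand. In the GENCODE annotation the ends of Stat3 and Stat5a, which are read from opposite strands, overlap by 72 bases, those of Stat6 and Nab2 by 40, and an antisense RNA runs over 24326 bases of Tyk2. The sources used here do not say whether counting used the strand, so reads in such overlaps cannot be assigned with certainty.

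Stat5a and Stat5b share stretches of sequence, and this may touch the values given for them. Of the 50-base words in the coding transcripts of Stat5a, 14.7% also occur in Stat5b, and 11.1% of those of Stat5b occur in Stat5a. No 50-base word was shared by any other pair of the 8 genes. The longest identical run in their coding sequences is 324 bases, and it spans exons 6 to 8 of both genes. Its 111 bases in exon 6, shown because a read that lies inside them cannot be placed, are the same in Stat5a (chr11:100874023-100874133, plus strand) and in Stat5b (chr11:100798591-100798701, minus strand).
Stat5a and Stat5b: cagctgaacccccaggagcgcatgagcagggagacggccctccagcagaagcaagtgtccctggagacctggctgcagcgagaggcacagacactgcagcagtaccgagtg

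The 250 bases upstream of a transcript start were searched for the letters of STAT-bound elements (RefSeq promoters, GRCm38.p6). A start can lie inside the outermost bounds of the gene given above, as it does for Stat3, so a window may overlap those bounds. The STAT core TTCNNNGAA, the wider spacing TTCNNNNGAA and the interferon-type element GAAANNGAAA were searched on both strands. TTCNNNGAA was in 7.02% of 32851 promoters and in none of the 10 windows of the 8 genes. TTCNNNNGAA was in 5.85% of all promoters and GAAANNGAAA in 2.98%, and each was in 1 of the 10 windows, that of Stat2. Both windows below are printed because Stat2 held the only matches and Stat3 is the gene the study targeted. Capitals mark the matches, which in Stat2 do not overlap each other. A match describes these letters and is no evidence of binding.
Stat2 (chr10:128270248-128270497, plus strand): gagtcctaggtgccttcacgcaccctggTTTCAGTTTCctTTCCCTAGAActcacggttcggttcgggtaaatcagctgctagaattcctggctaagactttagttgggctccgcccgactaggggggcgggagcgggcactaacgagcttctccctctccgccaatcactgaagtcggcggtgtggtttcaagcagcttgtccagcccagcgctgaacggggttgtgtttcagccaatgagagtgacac
Stat3 (chr11:100939541-100939790, minus strand): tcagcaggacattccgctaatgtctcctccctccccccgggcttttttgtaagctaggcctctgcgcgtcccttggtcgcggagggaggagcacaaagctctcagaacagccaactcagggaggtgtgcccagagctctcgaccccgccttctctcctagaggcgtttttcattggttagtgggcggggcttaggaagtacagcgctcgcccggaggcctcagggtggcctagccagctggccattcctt

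Per transcript length, Stat6 and Stat3 were the most abundant of the 8 genes. Levels were divided by the length of the longest coding transcript in GENCODE and averaged over the 8 libraries. Stat6 stood at 28.4 normalized reads per kb, Stat3 at 15.1, Jak1 at 9.66, Jak2 at 7.18, Stat2 at 4.01, Stat5b at 3.54, Tyk2 at 1.62 and Stat5a at 1.44. The ranges over libraries overlapped for every pair of neighbours in that order. Within libraries, Stat6 was above Stat3 in 7 of 8, Stat3 above Jak1 in 7, Jak1 above Jak2 in 7, Jak2 above Stat2 in 7 and Stat5b above Tyk2 in 7. Stat2 was above Stat5b in 5 of 8 libraries and Tyk2 above Stat5a in 4, so these neighbours were not separated. Dividing by the union of all exons instead put Jak2 ahead of Jak1, at 7.18 and 6.56, and Stat5b ahead of Stat2, at 3.34 and 2.98, and left the other places in the order as they were.

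**Figure D1:**
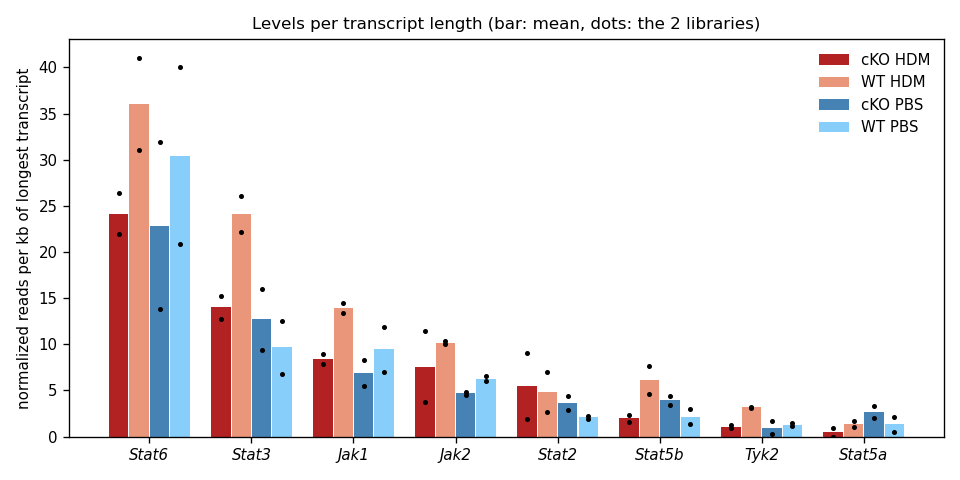
Normalized reads per kb of the longest coding transcript (vertical axis) for the 8 genes in the 4 groups; bars are means of 2 libraries and dots the libraries. Stat6 and Stat3 are the tallest in each group, and Tyk2 and Stat5a the lowest over all libraries.

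Stat3 was the gene targeted in this study. It held 76.9 and 92.2 normalized counts in cKO HDM, 134 and 157 in WT HDM, 56.9 and 96.5 in cKO PBS, and 75.8 and 40.9 in WT PBS. The WT HDM libraries were above all 6 others, and the share of all genes with this pattern was not computed. The libraries labelled cKO were below WT after HDM with no overlap, as were 21.9% of all tested genes. After PBS the cKO and WT libraries overlapped. In the fit across all genes (limma on log2 of the normalized count plus 1), HDM against PBS in WT gave 1.36 ± 0.39 (log2 difference ± standard error, 95% interval 0.53 to 2.20, unadjusted p = 0.00322, limma adjusted p = 0.189). It did not pass an adjusted p of 0.05 over the 7512 genes tested. The same difference passed among genes with a mean of at least 50 (limma adjusted p = 0.0442) and when only the WT groups were fitted (limma adjusted p = 0.0302). Its adjusted p ranged from 0.0302 to 0.607 over the alternatives other than leaving out single libraries, and the value from 0.93 to 1.80 when libraries were left out in turn.

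In cKO, HDM against PBS gave 0.18 ± 0.39 for Stat3 (95% interval -0.65 to 1.01), and -0.19 without cKO PBS library 1. The responses of the genotypes differed by -1.18 ± 0.55 (cKO minus WT, unadjusted p = 0.0488, limma adjusted p = 0.638). The comparison of cKO with WT gave -0.78 ± 0.39 after HDM and 0.41 ± 0.39 after PBS, and neither passed (limma adjusted p = 0.549 and 0.845). Without WT PBS library 2 the PBS value was -0.03. Averaged over treatment, cKO against WT stood at -0.19 ± 0.28 for Stat3 (95% interval -0.77 to 0.40), and leaving out cKO PBS library 1 or WT PBS library 1 turned it to 0.00223 and 0.03. A lower Stat3 level was thus not detected in the libraries labelled cKO over both treatments. These counts sum all exons of a gene and cannot show whether part of the transcript was lost. In a bulk library fewer cells that express a gene and less RNA per cell cannot be told apart.

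**Figure D2:**
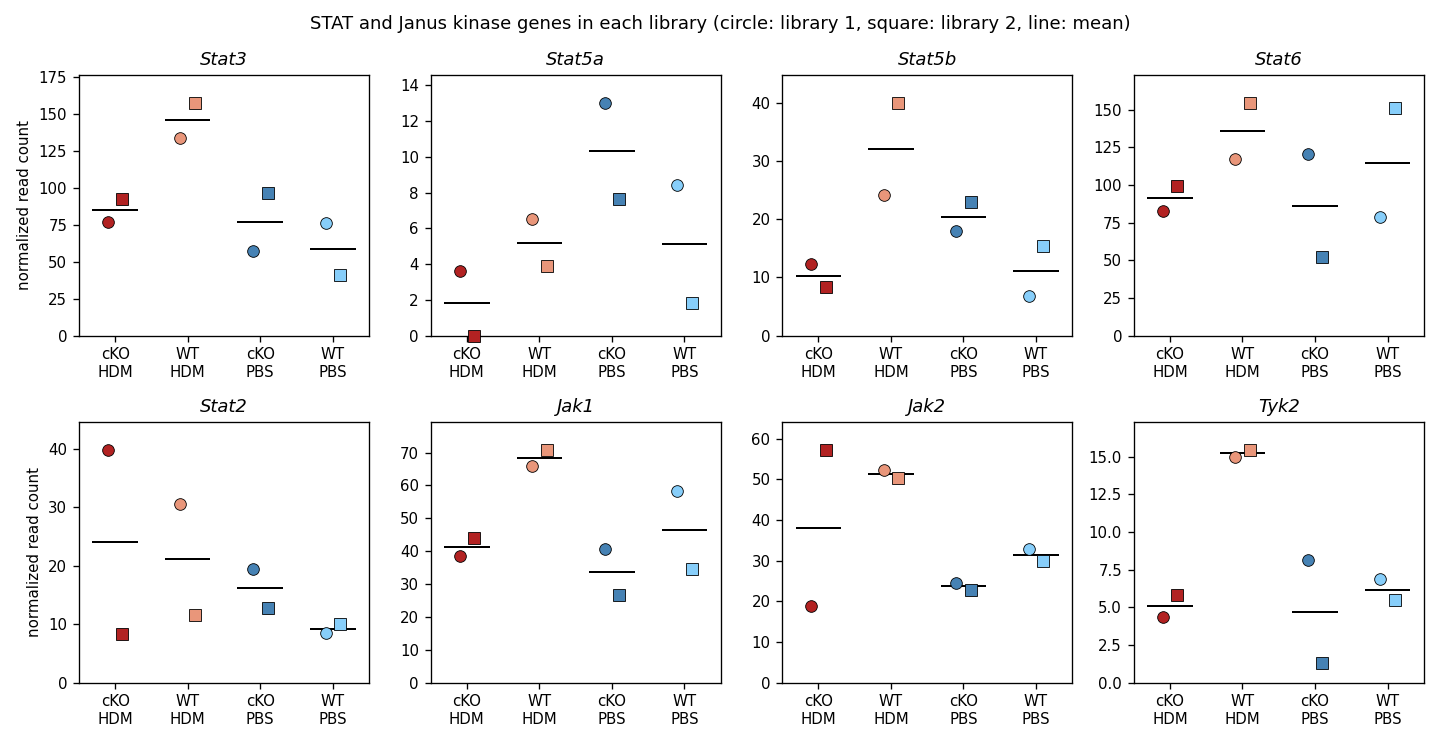
Normalized read counts (vertical axis, scaled to each gene) of the 8 genes by group; the circle is library 1, the square library 2 and the line their mean. WT HDM has the highest mean for Stat3, Stat5b, Stat6, Jak1, Jak2 and Tyk2, while Stat2 is highest in cKO HDM library 1 and Stat5a in cKO PBS library 1.

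Stat6, which carries the IL-4 and IL-13 signal, had 82.7 and 99.7 normalized counts in cKO HDM, 117 and 155 in WT HDM, 120 and 52.1 in cKO PBS, and 78.8 and 151 in WT PBS. The PBS libraries of each genotype lay far apart and spanned nearly the whole range. HDM against PBS gave 0.19 ± 0.42 in cKO (95% interval -0.70 to 1.08) and 0.30 ± 0.42 in WT (95% interval -0.59 to 1.19). The intervals leave room for a change in either direction in both genotypes, and the signs turned without cKO PBS library 2 (-0.40 in cKO) and without WT PBS library 1 (-0.16 in WT). After HDM the libraries labelled cKO were below those of WT with no overlap, as were 21.9% of all tested genes. The difference was -0.56 ± 0.42 (limma adjusted p = 0.733).

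The balance of Stat3 and Stat6 within a library does not depend on the normalization. Stat3 took 48.2% and 48.1% of the reads of both genes in cKO HDM and 53.2% and 50.4% in WT HDM. After PBS it took 32.1% and 65.0% in cKO and 49.0% and 21.3% in WT. The exact 95% intervals (Clopper-Pearson, counting error only) of the 4 HDM libraries all included 50%, from 41.4% at the lowest bound to 58.3% at the highest. Among the PBS libraries, the interval of cKO library 1 (23.5% to 41.7%) and that of WT library 2 (16% to 27.5%) lay below 50%, and that of cKO library 2 (55.6% to 73.5%) above it. Replicates after PBS thus differed by more than counting error in this ratio, in both genotypes.

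**Figure D3:**
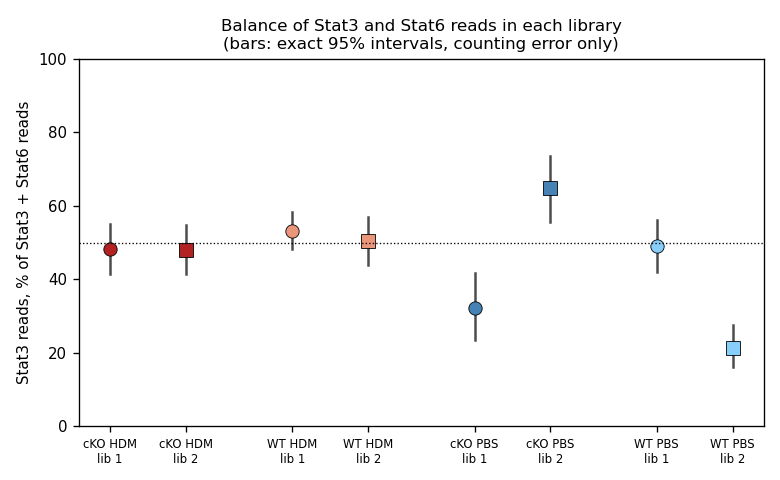
Stat3 reads as a percentage of Stat3 plus Stat6 reads (vertical axis) in each of the 8 libraries, with exact 95% intervals for counting error. The 4 HDM libraries lie between 48.1% and 53.2%, and the 4 PBS libraries between 21.3% and 65.0%.

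Stat5b, a transducer of growth hormone and of several interleukins, differed between HDM and PBS in opposite directions in the genotypes. It had 12.3 and 8.31 normalized counts in cKO HDM, below 17.9 and 22.9 in cKO PBS. In WT it had 24.1 and 40.0 after HDM, above 6.89 and 15.5 after PBS. Neither pair of groups overlapped. Of all genes tested, 16.7% were lower without overlap in cKO and 21.2% were higher without overlap in WT. HDM against PBS was -0.93 ± 0.75 in cKO and 1.49 ± 0.75 in WT (limma adjusted p = 0.769 and 0.598). The responses differed by -2.42 ± 1.06 (95% interval -4.68 to -0.17, unadjusted p = 0.0369), which did not pass over all genes (limma adjusted p = 0.623). Behind these values stand 9 to 37 reads per library, and the run shared with Stat5a may have taken or lent some of them.

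Its neighbour Stat5a was close to the limit of detection. It had 3.63 and 0 normalized counts in cKO HDM, 6.52 and 3.87 in WT HDM, 13.0 and 7.62 in cKO PBS, and 8.42 and 1.82 in WT PBS. Within cKO the HDM libraries were below the PBS libraries with no overlap, on 5 and 0 reads against 8 and 6. Of the genes tested, which leave out Stat5a, 16.7% were lower in this way. In WT the treatments overlapped. A count of 0 allows up to 3 reads, which is 2.49 normalized counts in cKO HDM library 2. With no filter on low values, HDM against PBS in cKO gave -2.35 ± 1.29 for Stat5a (limma adjusted p = 0.809).

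Stat2 joins IRF9 in the complex that binds interferon response elements, and its own promoter window held the one GAAANNGAAA match. It had 39.9 and 8.31 normalized counts in cKO HDM, 30.7 and 11.6 in WT HDM, 19.5 and 12.7 in cKO PBS, and 8.42 and 10.003 in WT PBS. In each HDM group library 1 was far above library 2, on 55 against 10 reads in cKO and 47 against 9 in WT. No group difference exceeded that spread, with HDM against PBS at 0.22 ± 0.87 in cKO and 0.97 ± 0.87 in WT and cKO against WT after HDM at -0.03 ± 0.87. The value for HDM against PBS in cKO turned to -0.85 without cKO HDM library 1 and to -0.073 without cKO PBS library 2. That for cKO against WT after HDM turned to 1.03 without cKO HDM library 2 and to 0.63 without WT HDM library 1. Its partner Irf9 had 42.8 and 19.1 normalized counts in cKO HDM, 18.9 and 3.87 in WT HDM, 9.76 and 20.3 in cKO PBS, and 26.8 and 20.9 in WT PBS. For Irf9 too, library 1 of each HDM group was the higher.

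Among the kinases, Jak1 serves the gp130, interferon and IL-4 receptors. It had 38.5 and 44.0 normalized counts in cKO HDM, 65.9 and 70.9 in WT HDM, 40.7 and 26.7 in cKO PBS, and 58.2 and 34.6 in WT PBS. Both WT HDM libraries were above the 6 others, a pattern whose share among all genes was not computed. HDM against PBS gave 0.31 ± 0.45 in cKO and 0.60 ± 0.45 in WT, and cKO against WT gave -0.72 ± 0.45 after HDM and -0.43 ± 0.45 after PBS, with none past the threshold.

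Jak2, which serves growth hormone, GM-CSF and interferon gamma receptors, had 18.9 and 57.3 normalized counts in cKO HDM, 52.2 and 50.3 in WT HDM, 24.4 and 22.9 in cKO PBS, and 32.9 and 30.0 in WT PBS. The cKO HDM libraries held both the lowest and the highest value of all 8, and every other group was tight. HDM against PBS gave 0.47 ± 0.55 in cKO, where the sign turned without cKO HDM library 2 (-0.31), and 0.69 ± 0.55 in WT. After HDM, cKO against WT gave -0.62 ± 0.55, and 0.16 without cKO HDM library 1.

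Tyk2, the kinase of the interferon alpha receptor and of the IL-10 and IL-12 families, had 4.35 and 5.81 normalized counts in cKO HDM, 15.0 and 15.5 in WT HDM, 8.13 and 1.27 in cKO PBS, and 6.89 and 5.46 in WT PBS. The WT HDM libraries stood above all 6 others, on 23 and 12 reads against 1 to 9. How many of all genes do so was not computed. With no filter on low values, HDM against PBS in WT gave 1.19 ± 1.09 and cKO against WT after HDM -1.43 ± 1.09, and neither passed (limma adjusted p = 0.788 and 0.723).

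HDM against PBS in WT asked how the allergen changed the sorted cells of mice with intact Stat3. All 6 tested genes of the family were positive, as were 48.5% of all genes, and their median was 0.83, beside -0.03 over all genes tested. Of the 6, 5 were higher in both WT HDM libraries than in both WT PBS libraries, where 21.2% of all tested genes were. None passed with limma, where 0.519% of all genes did, 0 with edgeR and 0 with DESeq2, and 1 of the 6, Stat3, had an unadjusted p under 0.05, as did 8.93% of all genes. The 8 genes summed to 277 and 316 normalized counts in cKO HDM, 445 and 504 in WT HDM, 301 and 243 in cKO PBS, and 276 and 289 in WT PBS. As a share of all reads counted on genes this was 0.0748% and 0.0837% in cKO HDM, 0.115% and 0.123% in WT HDM, 0.0796% and 0.0640% in cKO PBS, and 0.0752% and 0.0774% in WT PBS. The exact 95% intervals of the WT HDM libraries began at 0.107% and 0.111%, above the upper bound of 0.0925% that was the highest among the other 6. These intervals set single libraries against counting error alone and are no test between groups of 2 libraries. STAT genes made up 64.5% to 79.1% of the reads of the family.

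Markers of other cell types were high in the same WT HDM libraries. The 10 endothelial genes summed to 202 to 262 normalized counts in cKO HDM, 1118 to 1181 in WT HDM, 229 to 364 in cKO PBS and 250 to 270 in WT PBS, and 10 of 10 were higher in WT HDM than in WT PBS with no overlap. The 8 fibroblast and smooth muscle genes summed to 98.0 to 98.8 in cKO HDM, 1269 to 1379 in WT HDM, 48.8 to 117 in cKO PBS and 67.4 to 108 in WT PBS, with 7 of 8 higher in WT HDM than in WT PBS. The 12 leukocyte genes summed to 4.35 to 8.31 in cKO HDM, 54.1 to 278 in WT HDM, 7.62 to 13.0 in cKO PBS and 1.53 to 14.5 in WT PBS, with 6 of 12 higher. Of these, 9 were at 0 in both cKO HDM libraries, 1 (Siglecf) in both WT HDM libraries, 10 in cKO PBS and 8 in WT PBS. The 5 red blood cell genes summed to 3.32 to 13.1 in cKO HDM, 229 to 424 in WT HDM, 22.8 to 30.5 in cKO PBS and 24.5 to 36.4 in WT PBS, with 4 of 5 higher in WT HDM than in WT PBS. The 6 alveolar type 1 genes summed to 192 to 226 in cKO HDM, 348 to 393 in WT HDM, 203 to 258 in cKO PBS and 225 to 234 in WT PBS, with 2 of 6 higher. The 7 alveolar type 2 genes were all higher in WT HDM than in WT PBS. Epithelial, club cell and ciliated cell lists were not, with 3 of 5, 3 of 5 and 4 of 7 genes lower and none higher. Their part in the levels of the STAT and kinase genes was not tested.

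In cKO no gene of the family was called for HDM against PBS, and the estimates went both ways. The median over the 6 tested genes was 0.21, beside 0.10 over all genes, and 5 of 6 were positive, as were 55.5% of all. Of the 6, Stat5b alone was lower in both HDM libraries than in both PBS libraries, as were 16.7% of all tested genes, and 0 of the 6 were higher with no overlap, against 19% of all. None passed with limma, where 0.0532% of genes did, with edgeR or with DESeq2, and 0 of 6 had an unadjusted p under 0.05, where 7.77% of genes did.

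cKO against WT under HDM is the comparison the study's title names. All 6 tested genes were negative, as were 49.2% of all genes, and their median was -0.67, beside 0.02 over all genes. Of the 6, 4 (Stat3, Stat5b, Stat6 and Jak1) were lower in both libraries labelled cKO than in both of WT, where 21.9% of all tested genes were. Stat3, the targeted gene, was 1 of these 4, and Stat5b had the largest difference of the 6. Stat5b stood at -1.53 ± 0.75, Jak1 at -0.72 ± 0.45 and Stat3 at -0.78 ± 0.39, with intervals that overlap. None passed with limma, where 0.572% of genes did, or with edgeR. DESeq2 called none of the 4 for which it gave an adjusted p, which leaves out Stat5b and Stat2. With limma 0 of 6 had an unadjusted p under 0.05, where 9.6% of genes did. This comparison shares the WT HDM libraries with the first, and 10 of 10 endothelial, 7 of 8 fibroblast, 8 of 12 leukocyte, 4 of 5 red blood cell and 7 of 7 alveolar type 2 genes were lower in cKO HDM than in WT HDM with no overlap. Their part in this comparison was not tested.

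**Figure D4:**
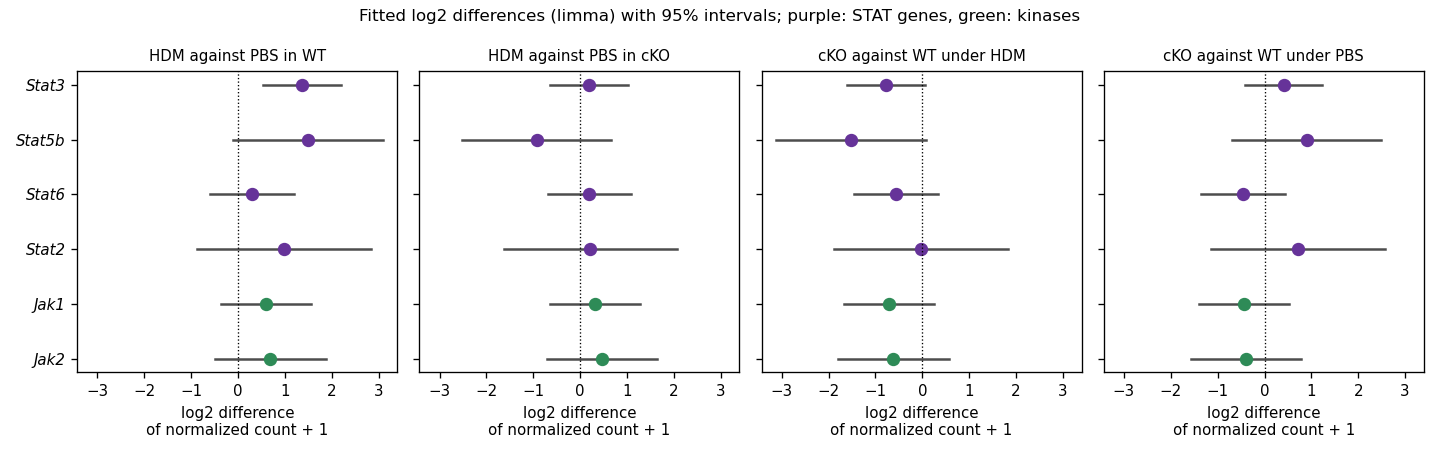
Log2 differences of the normalized count plus 1 (horizontal axis) with 95% intervals for the 6 tested genes in 4 comparisons; purple points are STAT genes and green points kinases. The 6 points are all positive for HDM against PBS in WT and all negative for cKO against WT under HDM, and Stat3 in the first panel is the only interval that leaves out 0.

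cKO against WT under PBS showed no common direction. Of the 6 tested genes 3 were positive, as were 44.6% of all genes, and 3 negative, with a median of 0.00406, beside -0.09 over all genes. Stat5b and Stat2 were higher in both libraries labelled cKO than in both of WT, where 15.7% of all genes were, and Jak2 was lower, at 22.9 to 24.4 against 30.0 to 32.9 normalized counts, where 19.1% were. The largest of these differences was 0.90 ± 0.75, for Stat5b. None of the 6 passed with limma, edgeR or DESeq2, nor did any gene of the table (0%), and 0 of the 6 had an unadjusted p under 0.05, where 6.96% of genes did.

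The interaction asked whether genotype changed the response. All 6 values (cKO minus WT) were negative, as were 44% of all genes, and their median was -0.52, beside 0.16 over all genes. Stat3 and Stat5b had an unadjusted p under 0.05, where 7.77% of genes did. None passed with limma, where 0.0266% of genes did, with edgeR or with DESeq2. Stat6 (-0.11 ± 0.59), Jak1 (-0.28 ± 0.64) and Jak2 (-0.22 ± 0.78) had intervals wide on both sides of 0, and these signs and that of Stat2 turned when single libraries were left out. Averaged over genotype, HDM against PBS was positive for all 6 and for 52.8% of all genes, with Stat3 at 0.77 ± 0.28 (95% interval 0.18 to 1.36, unadjusted p = 0.0134, limma adjusted p = 0.432), and none passed, where 0.399% of genes did. Stat3 was the 1 of the 6 with an unadjusted p under 0.05, where 8.45% of genes had one. Averaged over treatment, cKO against WT was negative for 5 of 6 and for 52.6% of all genes, with Jak1 at -0.58 ± 0.32 and Stat6 at -0.51 ± 0.30, and none passed, where 0.12% of genes did. No value of the family in these 3 comparisons passed with edgeR or DESeq2, and 0 of the 6 in the last had an unadjusted p under 0.05, where 8.41% of genes did.

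The rest of the pathway was read from lists of its ligands, receptors, inhibitors and targets. Of 18 ligand genes 13 had 0 reads in every library, among them Il6, Il4, Il13, Il22 and Ifng, and none was abundant enough to test. Of 23 receptor genes 14 were tested and none passed in any of the 7 comparisons (limma adjusted p under 0.05). Il4ra, the chain shared by the IL-4 and IL-13 receptors, had 8.71 and 11.6 normalized counts in cKO HDM, 52.2 and 46.4 in WT HDM, 9.76 and 10.2 in cKO PBS, and 2.30 and 12.7 in WT PBS. Only WT HDM was thus above 12.7, and the share of all genes with such a pattern was not computed. Il13ra1, the partner of Il4ra, was lower in both WT HDM libraries (64.6 and 43.8) than in both WT PBS libraries (130 and 120). Of all tested genes, 20.8% were lower in this way. Il13ra1 stood at -1.22 ± 0.34 for HDM against PBS in WT (limma adjusted p = 0.169), opposite to Il4ra at 2.90 ± 0.88. Il6st, the gp130 chain of the IL-6 family receptors, had 144 and 140 in cKO HDM, 222 and 218 in WT HDM, 159 and 128 in cKO PBS, and 186 and 136 in WT PBS. Its difference for cKO against WT after HDM was -0.63 ± 0.28 (limma adjusted p = 0.490). In that comparison the receptors with the smallest p were Il22ra1, at 3.25 ± 1.18, and Lifr, at -1.97 ± 0.75. In cKO they were Ghr, at -1.51 ± 0.78, and Ifnar1, at -1.36 ± 0.72, for HDM against PBS.

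Of 18 inhibitor genes 12 were tested and none passed in any comparison. Cish, a feedback inhibitor induced by STAT5, had 29.8 and 12.5 normalized counts in cKO HDM, 25.4 and 27.1 in WT HDM, 3.25 and 0 in cKO PBS, and 5.36 and 4.55 in WT PBS. All 4 HDM libraries were above all 4 PBS libraries, as were 2.26% of all genes tested, and the value averaged over genotype was 2.75 ± 0.83 (limma adjusted p = 0.294). Pias3, which binds STAT3, had 10.2 and 28.2 in cKO HDM and 0 and 0 in cKO PBS, but 7.17 and 29.7 in WT HDM and 10.7 and 5.46 in WT PBS. Socs3, the feedback inhibitor of gp130 signalling, had 31.9 and 30.7 in cKO HDM, 30.0 and 32.2 in WT HDM, 8.13 and 36.8 in cKO PBS, and 27.6 and 1.82 in WT PBS, with HDM groups that were nearly equal (cKO against WT 0.01 ± 0.95).

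Target genes of STAT6 were the list with the most genes past the threshold. Of 8 tested, 2 rose with HDM in cKO (Chil4 and Chia1), where 0.0532% of all genes passed. In WT 6 rose (Chia1, Retnla, Clca1, Chil3, Chil4 and Slc26a4), where 0.519% passed. The list medians were 2.64 in cKO and 3.31 in WT, beside 0.10 and -0.03 over all genes. Averaged over genotype 5 rose (Chia1, Chil4, Retnla, Clca1 and Chil3), where 0.399% of all genes passed. Of these 5, edgeR and DESeq2 kept all, and 2 were left without a variance trend. Both cKO calls were lost without a variance trend, without a filter, with a pseudocount of 0.2, with only the groups compared, and without any 1 of the 4 HDM libraries. In WT, of the 6 calls 0 were left without a variance trend and without WT HDM library 2, 1 without WT PBS library 1 and 3 without WT HDM library 1 or WT PBS library 2, while edgeR and DESeq2 kept all 6 and both cKO calls. Chia1, an acidic chitinase, had 321 and 206 normalized counts in cKO HDM, 305 and 464 in WT HDM, 17.9 and 44.4 in cKO PBS, and 26.8 and 45.5 in WT PBS, and its differences were 3.14 ± 0.44 in cKO and 3.39 ± 0.44 in WT (limma adjusted p = 0.0104 and 0.00163). Clca1, secreted with airway mucus, had 1565 and 3287 in cKO HDM, 1884 and 1104 in WT HDM, 283 and 784 in cKO PBS, and 230.4 and 102 in WT PBS. The HDM libraries of both genotypes were above their PBS libraries for both genes, as were 19% of all tested genes in cKO and 21.2% in WT. Stat6 itself stood at 0.19 ± 0.42 in cKO and 0.30 ± 0.42 in WT. No STAT6 target passed for cKO against WT under HDM or in the interaction, with list medians of -0.31 and -0.89. Under HDM 3 of the 8 were positive, and the smallest p belonged to Chil3 and Slc26a4, both lower in cKO. Chil3 stood at -3.67 ± 0.85 (limma adjusted p = 0.0749), on 31.9 and 12.5 normalized counts against 193 and 370. Slc26a4 stood at -3.42 ± 1.28 (limma adjusted p = 0.382), on 21.8 and 4.98 against 104 and 148. Chil3 and Chil4 are near copies and may share reads. The 12 leukocyte genes summed to 4.35 to 8.31 in cKO HDM, 54.1 to 278 in WT HDM and 1.53 to 14.5 in WT PBS. Of these genes 8 were lower in cKO HDM than in WT HDM with no overlap, and 0 were higher. The endothelial and fibroblast sums were highest in WT HDM too. The part of such cells in the levels of the STAT6 targets was not tested.

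Of 15 tested STAT3 targets, 0 passed with limma for HDM against PBS in either genotype, with medians of 0.24 in cKO and 1.01 in WT. For cKO against WT under HDM the median was -0.79, beside 0.02 over all genes, and Pim1 fell (limma adjusted p = 0.0205). In that comparison the medians of the tested markers were -2.37 for endothelial cells, -3.75 for fibroblasts and -1.35 for alveolar type 2 cells, and the single leukocyte gene tested stood at -4.09. Their part in the levels of the STAT3 targets was not tested. The Pim1 call held with edgeR and DESeq2 but was lost without a variance trend, without a filter, with a pseudocount of 0.2, without any 1 of the 4 HDM libraries and without WT PBS library 2 (limma adjusted p up to 0.498). Pim1, a kinase that is also on the STAT5 list, had 0 and 0 normalized counts in cKO HDM, 43.7 and 94.1 in WT HDM, 13.0 and 25.4 in cKO PBS, and 3.83 and 4.55 in WT PBS. Lrg1, a secreted glycoprotein, had 2.18 and 3.32 in cKO HDM and 66.5 and 81.2 in WT HDM, a difference of -4.33 ± 1.18 that did not pass (limma adjusted p = 0.150). Apart from Pim1, none of the 5 tested STAT5 targets passed in any comparison, and none of the 8 tested interferon genes did. Of the interferon genes, Ifitm3 and Psmb8 had the smallest p for HDM against PBS in WT, at 1.35 ± 0.53 and 1.94 ± 0.87.

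Across the 8 libraries, the closest pattern to Jak1 among 1771 genes with a mean of at least 50 was that of Il6st, at Pearson r = 0.95 on the log2 scale. For Stat3 the closest 3 were Cap1 (0.93), Thbd (0.91) and Ltbp3 (0.91), and for Stat6 they were Srebf2 (0.95), Oga (0.94) and Arpc5 (0.90). Stat5b was closest to Hnrnpk (0.95), Rnase4 (0.93) and Sftpc (0.91), the surfactant gene of alveolar type 2 cells, and Jak2 to Srrm2 (0.92). Stat2 was closest to Susd6 (0.95), Tyk2 to Ubtf (0.94) and Stat5a to Rhob (0.90). Within the family, Jak1 and Tyk2 were the closest pair (r = 0.91), followed by Stat6 and Tyk2 (0.78) and by Jak1 and Jak2 (0.69). Stat3 and Stat6, the most abundant members, did not vary together (r = -0.06), and Stat5a and Jak2 were the most opposed (r = -0.46). Every member had its closest gene at 0.90 to 0.95, also Stat5a on 0 to 11 reads per library. Such a value is the highest of many over only 8 libraries, and what unrelated genes would reach was not tested. All these values come from the same 8 libraries, share their depth and are descriptions.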

How the data were processed

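RNA was taken from lung cells isolated by flow cytometry, and strand-specific libraries were built from small amounts of RNA, per the labels' protocols. The deposited signal values are read counts per gene and library that the authors had normalized. The submitters' processing notes name HOMER, DESeq2 and mm10; the sources used here do not give the aligner, annotation or versions. Every value was a whole multiple of the value of 1 read (100% within 0.01 reads), so whole reads were recovered.

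Values were analysed as log2(value + 1), which understates the change of low genes. Genes with a mean of at least 10 were tested (7512 genes, 6 of the 8 members) with limma 3.58.1 in R 4.3.3 (1 mean per group over all 8 libraries, eBayes with a trend). All tests were two-sided with Benjamini-Hochberg adjustment over all genes and a threshold of 0.05. The recovered reads went through edgeR's quasi-likelihood test (4.0.16) and through DESeq2 (1.42.0) as alternatives; edgeR called 59 genes for HDM against PBS in WT. Other alternatives were pseudocounts of 5 and 0.2, no filter or a minimum mean of 50, recomputed size factors, quantile normalization, no variance trend, a replicate block, only the groups compared, and each library left out in turn.

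The members and lists were chosen with earlier results of these data known. The text names every member. From the pathway lists it draws on the genes that passed, the 2 with the smallest p in each comparison, Socs3 and Irf9, and it names the genes whose pattern was closest to a member. The ligands were named after their values were seen. Data were simulated for HDM against PBS in WT over 7512 genes, with 50 genes changed at each of 2-fold, 4-fold, 8-fold and 16-fold. The changed genes were drawn only from genes with a higher mean than Stat5b (18.5) and Stat2 (17.6). The rates therefore do not cover genes as low as these. In the simulated data limma found 6% of the genes changed 2-fold and 56% of those changed 4-fold. At 8-fold it found 88%, at 16-fold 100%, and 3 of its 128 calls were false. In the data limma made 39 calls in this comparison. More true changes make the adjusted threshold easier to pass, so the rates may be higher than those in the data. Exact intervals of shares and floors cover counting error only, while the intervals of log2 differences come from the limma fit and cover the spread between libraries.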

Additional observations from a re-analysis of the deposited data

Results flagged for a closer look

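Stat5b was singled out because its HDM libraries lay on opposite sides of the PBS libraries in the genotypes, downward in cKO and upward in WT, with no overlap between groups in either. Of all genes tested, 16.7% were lower without overlap in cKO and 21.2% were higher without overlap in WT. The share that showed both was not computed. Stat5b had 9 to 37 reads per library. Its interaction was -2.42 ± 1.06 on the log2 scale (cKO minus WT, unadjusted p = 0.0369, limma adjusted p = 0.623), so the difference did not pass over all genes. Without each library in turn it ranged from -2.95 to -1.89. Its sign could not turn there, because groups without overlap were the reason for the choice.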

How the results depend on the processing

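Of 752 values of the 42 member differences under 19 alternatives, 721 kept their direction and side of the threshold. Of the rest, 29 turned sign and 2 came to pass. Some alternatives, such as no variance trend or leaving out a library of a group not compared, cannot alter a log2 difference. As no member passed as reported, keeping the side meant staying short of the threshold. The count is therefore no measure of robustness. The count of members called was 0 in every comparison as reported, and 1 for HDM against PBS in WT with a minimum mean of 50 and with only the groups compared, where Stat3 passed; these settings test fewer genes or fewer samples. All other alternatives, among them edgeR and DESeq2, left it at 0, as did leaving out each library (0 to 0). No pairing of libraries by replicate number was seen (correlation of their deviations -0.0164 to 0.0182 between groups). Counting noise at this depth could hide one. With the replicate block 0 members and 43 genes were called for HDM against PBS in WT, with no member call changed.

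The sign turned for Stat2 in cKO against WT under HDM with a pseudocount of 5 (0.00688), edgeR (0.18) and DESeq2 (0.17), and in the interaction for Stat6 with quantile normalization (0.00696) and for Jak2 with edgeR (0.023); the cause was not tested. Leaving out libraries turned further signs. For HDM against PBS the ranges were -0.16 to 0.77 for Stat6 in WT, and in cKO -0.19 to 0.56 for Stat3, -0.40 to 0.79 for Stat6, -0.85 to 1.29 for Stat2 and -0.31 to 1.24 for Jak2. For cKO against WT they were -1.10 to 1.03 for Stat2 and -1.39 to 0.16 for Jak2 under HDM, and -0.031 to 0.84 for Stat3 and -1.05 to 0.14 for Stat6 under PBS. For the interaction they were -0.70 to 0.49 for Stat6, -1.82 to 0.31 for Stat2, -0.65 to 0.083 for Jak1 and -0.996 to 0.56 for Jak2. For the averages they were -0.051 to 0.55 for Stat6 with HDM, and -0.40 to 0.033 for Stat3 and -0.19 to 0.88 for Stat2 in cKO against WT. A group left with 1 library was assumed to vary like the others.

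Counts over all genes depended more on the choices. For HDM against PBS in WT 39 genes were called as reported, 1 without a variance trend, 14 without a filter, 16 and 108 with pseudocounts of 0.2 and 5, 77 with a minimum mean of 50, 101 with quantile normalization, 59 with edgeR, 134 with DESeq2 and 190 with only the groups compared. Leaving out libraries gave 3 (without WT HDM library 2 and without WT PBS library 1) to 110. For cKO against WT under HDM 43 became 0 to 142 over the same settings, and 3 without WT HDM library 2 to 117 without cKO PBS library 2. For HDM against PBS in cKO 4 became 0 to 28, and 320 without cKO PBS library 2. For cKO against WT under PBS 0 stayed 0 but for 53 and 315 without cKO PBS library 1 and 2. The 8 genes had 0 to 205 reads per library.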
